A study of Mus musculus with 16 samples.

Results

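The response of rotator cuff muscle to surgery in MRL/MpJ mice (called MRL) is described here across all genes counted, in 8 of the 16 samples of the series. The 8 samples were chosen by strain and surgical group: 4 came from muscles whose tendon had been removed and which had been denervated (operated), and 4 came from mice with no operation (unoperated). MRL/MpJ is an inbred strain studied because several of its tissues heal unusually well. The other 8 samples hold the same groups of 4 in C57BL/6J (called BL6), a common reference strain, and enter only where named. Messenger RNA was measured by RNA sequencing of whole muscle. The series text names the infraspinatus and the sample labels the supraspinatus, so the tissue is called rotator cuff muscle. The time between surgery and collection, the age and the sex of the mice are not given in the sources used here. The controls had no sham operation, and tendon removal and denervation were always done together, so the parts of the surgery cannot be told apart. Nothing in the labels says that the samples of a group came from separate animals, so p-values measure the spread between these samples.

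A muscle that has lost its tendon bears no load, and a muscle that has lost its nerve receives no signal to contract. Denervated fibres are known to shrink, to switch on myogenin and the subunits of the acetylcholine receptor along the whole fibre, and to change the proteins that pump calcium and burn fuel. Torn rotator cuff muscles are also known for the fat and connective tissue that gather between their fibres. In a bulk sample such as these, fewer cells of a type and less RNA per cell cannot be told apart.

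Libraries that stood apart from their groups come first, because each result below is given with and without them. Total counts of the 8 MRL samples ran from 24323862 to 39694956, so that 3 counts, taken as the lowest detectable level, stood for 0.0756 to 0.123 counts in each 1000000 of the library (CPM). On the first principal component of log2 CPM, with 66.39% of the variance, unoperated replicates 2 to 4 lay between -45.13 and -40.63 and operated replicates 1 to 3 between 29.96 and 55.97. Unoperated replicate 1 lay at -10.21 and operated replicate 4 at 9.862. Each lay on its own group's side, but nearer to the other group than the rest of its own group did. Operated replicate 4 also stood alone on the second component, at 39.6. A position along the BL6 response was computed as the slope of a sample's log2 CPM, centred on the mean of the unoperated MRL samples, on the log2 fold changes with surgery in BL6. It was -0.105 to -0.036 in unoperated replicates 2 to 4 and 0.241 in unoperated replicate 1. It was 0.641, 0.527 and 0.794 in operated replicates 1 to 3 and 0.421 in operated replicate 4, and the group means differed by 0.596, or by 0.734 without both libraries. Genes of the mitochondrial genome took 11.0% to 11.6% of counts in the unoperated samples, 24.9%, 20.1% and 21.7% in operated replicates 1 to 3, and 11.8% in operated replicate 4. Every pair of replicates differed by more than the sampling noise of its counts.

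**Figure D1:**
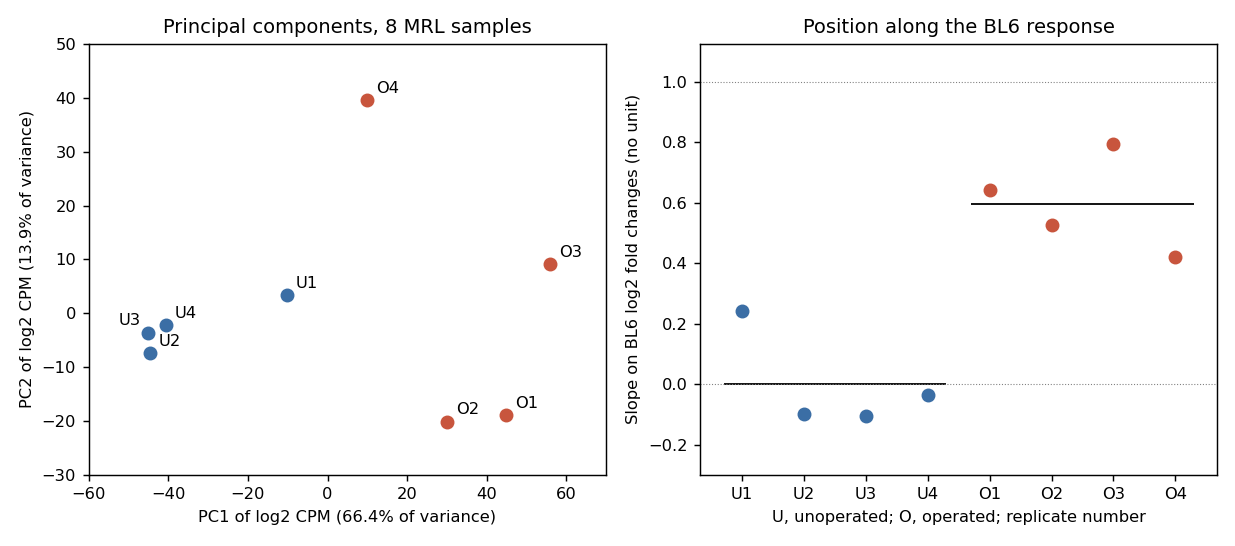
Left, the first and second principal components of log2 CPM over 11709 genes for the 8 MRL samples, with the percent of variance on each axis. Right, the position of each sample along the BL6 response (a slope with no unit), with lines at the group means. U1 (unoperated replicate 1) lies at 0.241, above the other unoperated samples, and O4 (operated replicate 4) at 0.421, the lowest of the operated samples.

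The label of the tissue was checked with 6 markers of the muscle fibre. Acta1 and Ckm, which code for skeletal actin and muscle creatine kinase, held 10069 to 25433 CPM and 10147 to 22070 CPM over the 8 samples. Mb, Des, Ttn and Neb, for myoglobin, desmin, titin and nebulin, held 1679 to 9201 CPM, so all 6 markers were abundant in every sample. Acta1 fell by 0.76 on the log2 scale (adjusted p = 0.00999 in edgeR's quasi-likelihood test) and Ckm by 0.60 (adjusted p = 0.0467). The other 4 were not called with all samples. Without both libraries Acta1 fell by 0.93, Ttn by 0.76 and Neb by 1.01, while Ckm was no longer called (adjusted p = 0.0557 in edgeR's quasi-likelihood test).

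Surgery was followed by changes in a large share of the genes of MRL muscle, in both directions. Of 11709 genes tested, 5272 (45%) were called by edgeR's quasi-likelihood test at the adjusted threshold of 0.05, 2609 of them higher (22.3%) and 2663 lower (22.7%) in operated muscle. Large rises were more common than large falls: 863 genes rose and 408 fell by at least 1 on the log2 scale, while the median log2 fold change over all genes was 0.01. In 3945 genes (33.7%) the 4 operated samples did not overlap the 4 unoperated ones, and 3372 of these were also called in the same direction.

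Without unoperated replicate 1 and operated replicate 4, 6399 genes (54.7%) were called, 3115 higher (26.6%) and 3284 lower (28%), and those that changed by at least 1 on the log2 scale numbered 2122 in place of 1271. Of the 2122, 1283 rose and 839 fell. Both sets of samples called 4987 genes in the same direction and none in opposite directions. Another 285 genes were called only with both libraries, and 1412 only without them. Of the 4987 genes, 4729 had the larger fold change without both libraries. Operated replicate 4 was the operated sample nearest to the unoperated group in 3890 of the 5272 called genes (73.8%), and unoperated replicate 1 was the unoperated sample nearest to the operated group in 3700 (70.2%). Both libraries were left out because they were already known to lie toward each other, so these counts are no test of that. The p-values without them rest on a spread that this choice made smaller. The rises and the falls did not weaken alike. Operated replicate 4 held a slope of 0.625 of the change seen in the other 6 samples over the 3115 genes that rose there, and of 0.377 over the 3284 that fell. The same slopes in unoperated replicate 1 were 0.373 and 0.321. What sets these libraries apart, an exchange or mixing of samples included, was not tested. Leaving out operated replicate 3 alone had the strongest effect of any single library on the count with all samples, which then stood at 3490. Below, a value after "or" is the same quantity without both libraries.

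**Figure D2:**
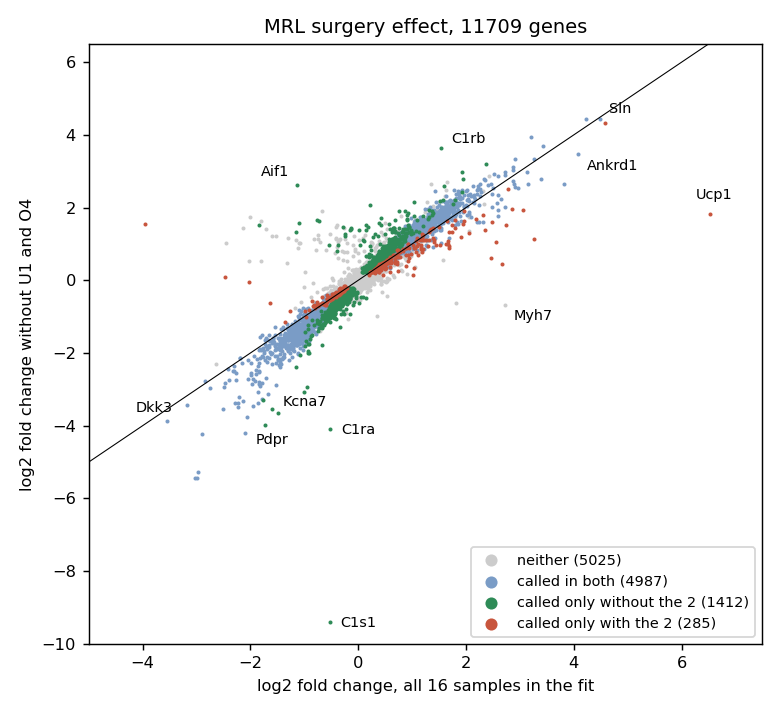
Log2 fold change of operated against unoperated MRL muscle for each of 11709 genes, with all samples (horizontal) and without unoperated replicate 1 (U1) and operated replicate 4 (O4) (vertical), and the line of equal change. The 4987 genes called in both sets lie mostly beyond the line, away from 0. Ucp1, Myh7, Aif1 and C1s1 lie far from it.

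The genes with the largest rises included a calcium pump inhibitor, a stress protein of the sarcomere and products of fat and connective tissue. Sln, which codes for sarcolipin, the inhibitor of the calcium pump of the sarcoplasmic reticulum, lies on chromosome 9 (53850164 to 53854560). It held 2.63, 0.613, 1.42 and 1.95 CPM in unoperated replicates 1 to 4 and 29.8, 6.59, 49.6 and 62.0 CPM in operated replicates 1 to 4. The groups did not overlap, and unoperated replicate 1 and operated replicate 4 each lay on the side of their own label. The log2 fold change was 4.49 (SE 0.66, adjusted p = 0.000621 in edgeR's quasi-likelihood test) and 4.44 without both libraries. Ankrd1, a titin-bound repeat protein that responds to mechanical stress, held 14.1, 11.9, 16.8 and 19.1 CPM against 165, 186, 183 and 511 CPM. Operated replicate 4 was the highest here, and the log2 fold change of 4.08 (SE 0.40) became 3.49 without both libraries. Srrm4os rose by 4.23 on the log2 scale, or by 4.45, but it is annotated as antisense and the use of strand in counting is not stated, so its reads may belong to its partner gene.

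Secreted and fat-related products followed. Cilp, a protein of the cartilage and connective tissue matrix, went from 10.3 to 21.7 CPM in the unoperated samples to 104 to 188 CPM in the operated ones, a rise of 3.26 on the log2 scale, or 3.34 without both libraries. Mfap4, a protein of elastic microfibrils, rose by 2.73, or by 2.97. Hp, which codes for the haemoglobin-binding plasma protein haptoglobin, held 1.71 to 4.19 CPM in the unoperated samples and 20.1, 13.9, 27.8 and 75.8 CPM in the operated ones. Hp rose by 3.39, or by 2.78 without both libraries. Apoc1, a lipoprotein component, rose by 3.15, or by 2.65. The adipocyte products Retn (resistin) and Cfd (adipsin) rose by 3.13 and 2.91, or by 2.99 and 2.56 without both libraries. Hspa1a, an inducible heat shock protein, held 25.9, 69.4, 8.13 and 10.8 CPM in the operated samples against 1.94 to 6.74 CPM, a rise of 2.88, or of 3.13. Hspa1b, its near-identical copy, rose by 2.87, or by 3.04, and the counting may have divided reads between the pair. Each of these genes kept its call without both libraries. Cidea, also among the 12 largest rises at 3.26, did not keep it and is described with the brown fat markers.

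The largest falls were in genes of varied function. Dkk3, which codes for a secreted protein of the Dickkopf family, lies on chromosome 7 (112116017 to 112159057). It held 117, 172, 137 and 110 CPM in the unoperated samples and 8.81, 13.8, 16.4 and 19.8 CPM in the operated ones. No sample of either group came near the other group, and the log2 fold change was -3.18 (SE 0.42, adjusted p = 0.000343 in edgeR's quasi-likelihood test), or -3.42 without both libraries. Cers1, a ceramide synthase, held 9.63 to 14.7 CPM in the unoperated samples and 0.528, 1.56, 1.46 and 5.29 CPM in the operated ones. The call stood with all samples at -2.51, and the value was -3.54 without both libraries.

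Mylk4, a myosin light chain kinase family member, held 1508, 2611, 3093 and 2119 CPM against 315, 587, 212 and 569 CPM, and fell by 2.47, or by 2.81. Mss51, a mitochondrial protein of muscle, fell by 2.42, or by 2.43. Mettl21e and Mettl21c, lysine methyltransferases of muscle, fell by 2.30 and 1.94, or by 2.37 and 2.08. Adcy9, an adenylyl cyclase that makes cyclic AMP, held 16.8, 37.0, 47.9 and 31.2 CPM against 3.33, 4.68, 3.12 and 15.7 CPM. Here unoperated replicate 1 was the lowest of its group and operated replicate 4 the highest of its own, only just under it, and the gene fell by 2.28, or by 3.38 without both libraries. Nkain1, which interacts with the sodium pump, fell by 1.97, or by 2.84. Odf3l2 fell by 2.30 and Lrtm1 by 1.99, or by 2.49 and 2.27 without both libraries. Ighm, the heavy chain of immunoglobulin M and the only lymphocyte marker analysed of 10 listed, held 159, 135, 186 and 127 CPM against 14.4, 28.3, 36.9 and 41.1 CPM. It fell by 2.33, or by 2.49 without both libraries.

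Measured by CPM, the balance of the most abundant transcripts moved. Among called genes, the 6 that gained the most CPM all lie on the mitochondrial genome. The called genes that lost the most code for proteins of contraction and its energy supply. The mitochondrial mt-Cytb held 28031, 30262, 27792 and 29419 CPM in the unoperated samples and 64511, 53484, 52107 and 27134 CPM in the operated ones. The first 3 operated replicates lay well above the unoperated samples, and operated replicate 4 lay below all of them. The log2 fold change was 0.77 (SE 0.24, adjusted p = 0.0165 in edgeR's quasi-likelihood test) and 0.96 without both libraries. Atp2a1, the calcium pump of fast fibres, went the other way, from 21767, 27128, 26801 and 24189 CPM to 10761, 14506, 9416 and 17040 CPM. The groups did not overlap, and it fell by 0.95, or by 1.17 without both libraries. Actn3, the actinin of fast fibres, fell by 1.29, or by 1.41, Pygm, the muscle glycogen phosphorylase, by 0.78, or by 0.89, and Tpm1, a tropomyosin, by 0.66. Tpm1 was not called without both libraries (log2 fold change -0.61, adjusted p = 0.0905 in edgeR's quasi-likelihood test).

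**Figure D3:**
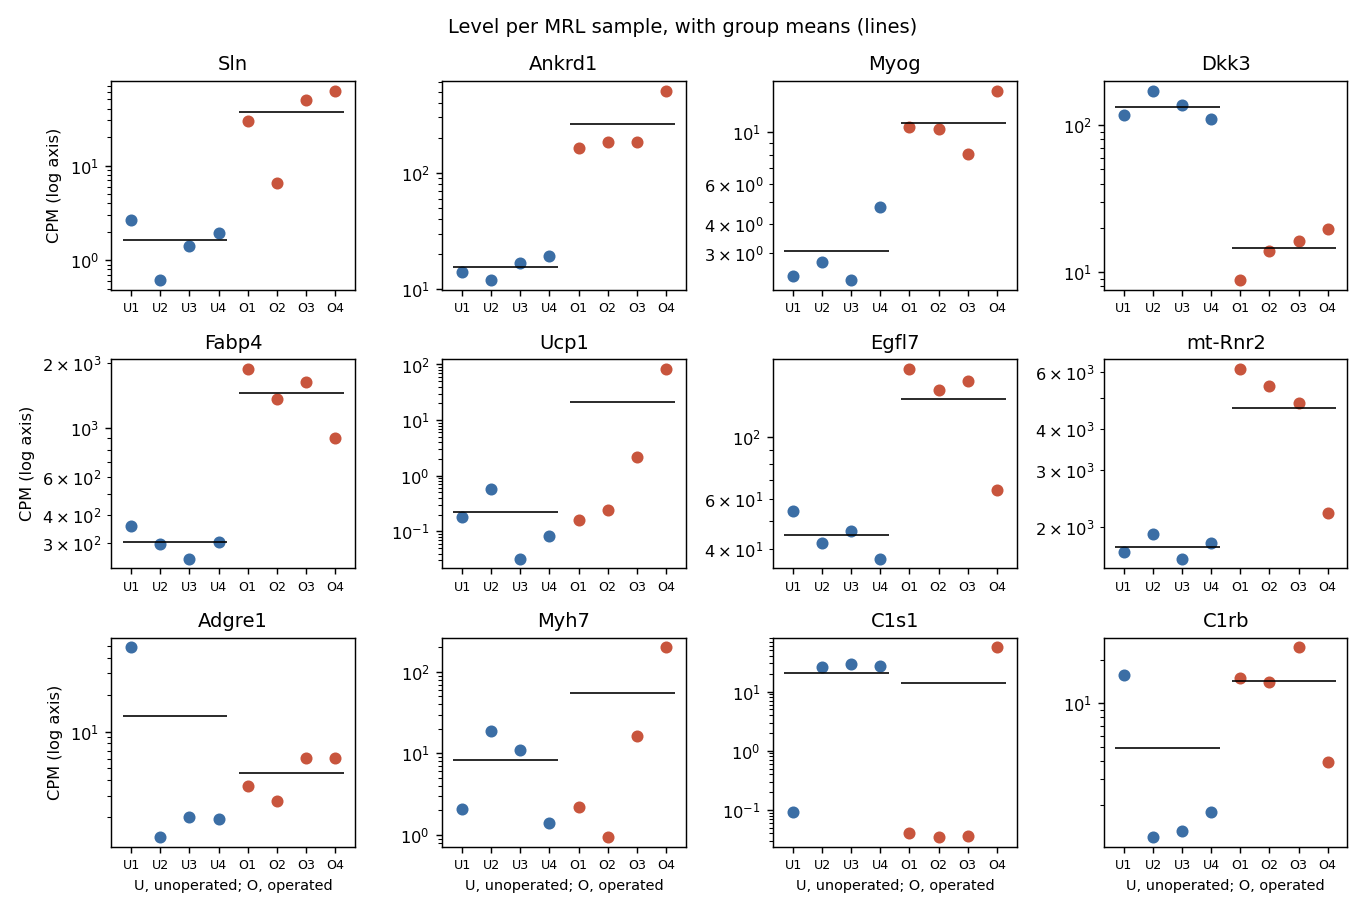
CPM on a log axis in each of the 8 MRL samples for 12 genes, with unoperated replicates U1 to U4, operated replicates O1 to O4 and lines at the group means. In Sln, Ankrd1, Myog, Dkk3, Fabp4, Egfl7 and mt-Rnr2 the groups do not overlap; in Ucp1 and Myh7 only O4 stands far above the rest, at 83.2 and 201 CPM; in Adgre1 U1 stands far above, at 48.5 CPM; in C1s1 and C1rb U1 and O4 sit with the samples of the other group.

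The genes were then read in lists by process and by cell type. A list is described by its members called higher and lower and by its median log2 fold change, to be read against 22.3% higher, 22.7% lower and a median of 0.01 over all genes tested, or 26.6%, 28% and 0.03 without both libraries.

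**Figure D4:**
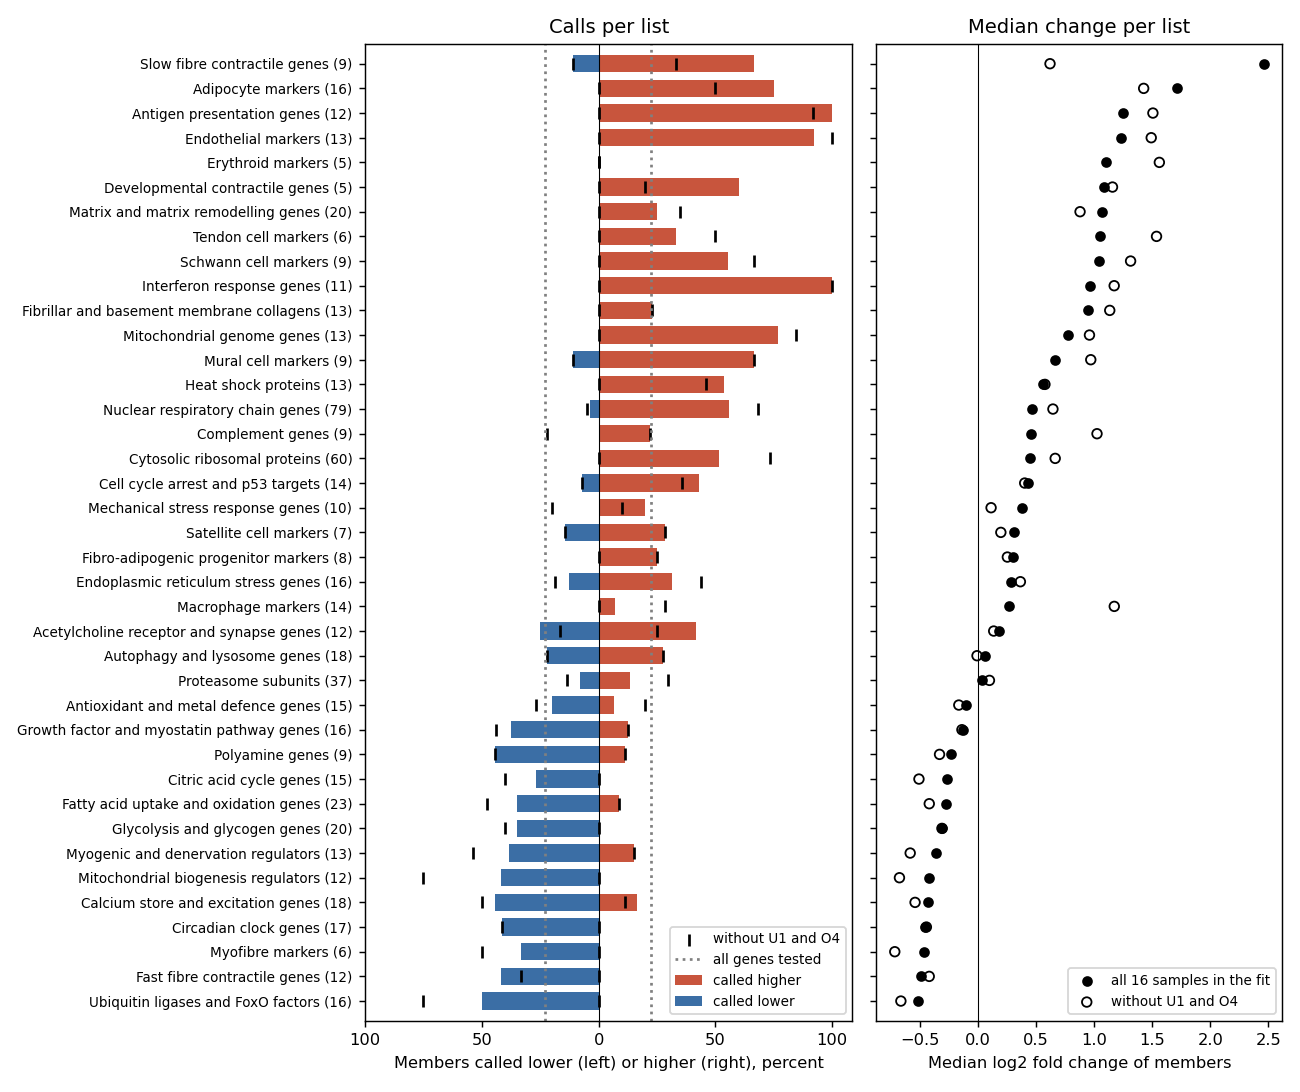
Left, the percent of analysed members of each list (number in parentheses) called lower and higher in operated MRL muscle, with ticks for the same without U1 and O4 and dotted lines for all genes tested. Right, the median log2 fold change of the members with all samples (filled) and without U1 and O4 (open). Antigen presentation and interferon response genes were all called higher with all samples, and slow fibre genes moved the furthest between the 2 sets, from a median of 2.46 to 0.62.

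Denervation genes moved in both directions. Among 12 genes of the acetylcholine receptor and the synapse, 5 were higher and 3 lower, with a median of 0.18, and without both libraries 3 were higher and 2 lower. Myog, the transcription factor myogenin, which drives receptor genes in denervated fibres, held 2.38, 2.76, 2.29 and 4.77 CPM against 10.6, 10.3, 8.02 and 15.1 CPM. Every operated sample was above every unoperated one, and the rise was 1.85, or 1.55 without both libraries (adjusted p = 0.0012 and 0.00274 in edgeR's quasi-likelihood test). Chrnb1, the beta subunit of the receptor, rose from 30.6 to 36.6 CPM to 57.3 to 67.8 CPM, by 0.89, or by 0.97. Agrn, the nerve-derived organiser agrin that muscle also makes, rose by 1.02, or by 1.24. Chrna1, the alpha subunit, did not rise: it went from 13.1 to 14.6 CPM to 8.84 to 12.5 CPM and fell by 0.37 with all samples, a change not called without both libraries (adjusted p = 0.0763). Musk, the receptor kinase that gathers acetylcholine receptors, and Rapsn, the scaffold under them, fell by 0.92 and 0.48, or by 1.67 and 0.57. Ncam1, an adhesion molecule known to mark denervated fibres, rose by 1.09 with all samples and had a log2 fold change of 0.94 without both libraries (adjusted p = 0.0924).

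Of 13 myogenic and denervation regulators, 2 rose and 5 fell, with a median of -0.36, and 2 rose and 7 fell without both libraries, with a median of -0.58. Runx1, a transcription factor known to sustain denervated fibres, was the other that rose, by 1.19, or by 1.16. Myod1, Mef2a and Six4, transcription factors of muscle genes, fell by 0.57, 0.73 and 0.90, or by 0.77, 0.95 and 1.34. Among 10 genes of the mechanical stress response only Ankrd1 and Csrp3, the muscle LIM protein, were higher and none lower, with a median of 0.38, and 1 was higher and 2 lower without both libraries. Csrp3 rose by 1.07 with all samples, from 33.8 to 111 CPM to 92.4 to 167 CPM, and the 0.77 without both libraries was not called (adjusted p = 0.0844). The promoter of Ankrd1 is shown because the gene had the largest change among stress genes, with 250 bases before its start on the reverse strand of chr19:36119845-36120094 (RefSeq, GRCm38.p6) and copies of the M-CAT element (CATTCC on either strand, here GGAATG), the letters of TEAD factors, in capitals.
Ankrd1: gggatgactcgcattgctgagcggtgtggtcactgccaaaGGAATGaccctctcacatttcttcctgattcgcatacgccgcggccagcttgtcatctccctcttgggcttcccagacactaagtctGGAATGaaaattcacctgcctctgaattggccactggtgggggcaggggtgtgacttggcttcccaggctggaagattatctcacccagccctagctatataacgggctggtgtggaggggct
The element was present in 3 of 9 mechanical stress genes with a promoter in the RefSeq table (33.3%) and in 12.6% of 32851 promoters of that length. A match is a description of the letters only.

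Contractile genes of fast fibres were called in 1 direction only, and those of slow fibres in both. Of 12 fast fibre genes 5 fell and none rose, with a median of -0.49, and 4 fell and none rose without both libraries, with a median of -0.42, where 28% of all genes fell. Mybpc2, the fast myosin-binding protein C, went from 3109 to 4116 CPM to 1350 to 2051 CPM and fell by 1.05, or by 1.21. Myh4, the myosin heavy chain of the fastest fibres, held 22346, 25848, 26059 and 19873 CPM against 11282, 17286, 12336 and 12358 CPM. Its groups did not overlap, but its log2 fold change of -0.82 was not called (SE 0.40, adjusted p = 0.106 in edgeR's quasi-likelihood test), nor was the -0.81 without both libraries.

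Of 9 slow fibre genes 6 were higher and 1 lower with all samples, with a median of 2.46, against 3 higher, 1 lower and a median of 0.62 without both libraries. Myh7, the slow myosin heavy chain, held 2.08, 19.0, 10.9 and 1.41 CPM in the unoperated samples and 2.19, 0.936, 16.2 and 201 CPM in the operated ones. The groups overlapped except for operated replicate 4, and the log2 fold change of 2.72 (adjusted p = 0.083) became -0.69 without both libraries. Myl3, the slow light chain, had the same pattern, with 57.2 CPM in operated replicate 4 and 0.728 to 11.4 CPM in all others, and its call was lost without both libraries (log2 fold change 0.44). Tnnt1, slow troponin T, held 30.2, 14.6, 118 and 199 CPM against 11.7 to 17.4 CPM and was called in both sets, at 2.59 and 1.77. Tnni1, slow troponin I, rose by 2.56 with all samples and the 1.06 without both libraries was not called. Mybpc1, the slow myosin-binding protein C, fell by 0.63, or by 1.07. The summed level of the 9 genes was 3931 to 5560 CPM in the unoperated samples, 3314, 2955 and 3116 CPM in operated replicates 1 to 3 and 7331 CPM in operated replicate 4. Mybpc1 alone, at 1320 to 3662 CPM over the 8 samples, made up much of these sums.

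Developmental forms were higher where called. Of 5 such genes 3 rose, Myh3 (embryonic myosin heavy chain) by 1.80, Myl4 by 1.08 and Actc1 (cardiac actin, made by immature fibres) by 1.23, and only Actc1 was called without both libraries, at 1.22. Myh3 held 2.91 to 5.09 CPM against 7.75, 3.68, 23.1 and 22.0 CPM. The genes of the calcium store and of excitation fell more often than they rose, 8 of 18 against 3, with a median of -0.43, and 9 against 2 without both libraries. Casq1, the fast calcium store protein calsequestrin, went from 2935 to 3284 CPM to 1057, 1468, 1091 and 1872 CPM, with no overlap, and fell by 1.21, or by 1.38. Jph2, which joins the surface membrane to the store, fell by 1.35, or by 1.76, and Scn4a, the sodium channel of the muscle membrane, by 1.38, or by 2.11. Casq2, the cardiac and slow form, rose by 0.74, or by 0.63. Atp2a2, the slow calcium pump, held 252 CPM in operated replicate 4 and 45.3 to 84.5 CPM in all others, and its rise of 1.02 was 0.13 and not called without both libraries.

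The ubiquitin ligases known for muscle atrophy were not higher in operated MRL muscle. Of 16 ligases and FoxO factors 8 fell and none rose, with a median of -0.51, and 12 fell without both libraries, with a median of -0.66. Fbxo32, which codes for atrogin-1, held 290, 429, 598 and 413 CPM against 85.4, 133, 198 and 302 CPM. Operated replicate 4 overlapped the unoperated range, and it fell by 1.27, or by 1.78 without both libraries (adjusted p = 0.0126 and 0.00128 in edgeR's quasi-likelihood test). Trim55 and Fbxo31 fell by 1.51 and 0.89, or by 2.09 and 1.11. Trim63, the other classical atrophy ligase, had a log2 fold change of -0.98 (adjusted p = 0.117) that was called only without both libraries, at -1.44. Of 37 proteasome subunits 5 were higher and 3 lower, with a median of 0.04, and 11 and 5 without both libraries. The 3 with the largest rise were Psmb8, Psmb9 and Psmb10, the immunoproteasome subunits that interferon induces, at 1.25, 1.58 and 0.84, or 1.56, 1.95 and 1.08. Psmd1, Psmd2 and Psmd8, subunits of the regulatory cap, fell by 0.79, 0.37 and 0.26, or by 1.18, 0.47 and 0.28.

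Of 18 autophagy and lysosome genes 5 rose and 4 fell, and 5 and 4 without both libraries. Map1lc3a and Gabarapl2, which coat the autophagosome, rose by 0.42 and 0.49, or by 0.50 and 0.68, and Bnip3l, a receptor for the removal of mitochondria, by 0.43, or by 0.59. Ctsl, the lysosomal protease cathepsin L, rose by 0.66, or by 0.73. Ctsd, cathepsin D, fell by 0.48, or by 0.40, Lamp1, a lysosomal membrane protein, by 0.45, or by 0.58, and Ulk1, the kinase that starts autophagy, by 0.77, or by 1.05.

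Growth signals and polyamine genes held large falls. Of 16 growth factor and myostatin pathway genes 2 rose and 6 fell, with a median of -0.12, and 2 and 7 without both libraries. Mstn, which codes for myostatin, the secreted brake on muscle growth, held 72.4, 83.4, 93.8 and 69.3 CPM against 12.7, 24.6, 23.6 and 33.2 CPM. The groups did not overlap, and it fell by 1.76, or by 2.01. Fst, for follistatin, which binds myostatin, went from 3.68 to 5.09 CPM to 9.70, 7.08, 25.2 and 33.0 CPM and rose by 2.09, or by 1.74. Acvr2b, a receptor of myostatin, and Smad3, a signal carrier below it, fell by 0.93 and 1.32, or by 1.34 and 1.78. Tgfb1, a growth factor of scarring, rose by 0.79, or by 1.07.

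Of 9 polyamine genes 4 fell and 1 rose in each set. Smox, spermine oxidase, held 428, 444, 273 and 211 CPM against 38.8, 119, 54.4 and 85.3 CPM and fell by 2.19, or by 2.13. Amd1 and Odc1, which feed polyamine synthesis, fell by 1.88 and 1.33, or by 2.18 and 1.63, and Sat1, which starts polyamine breakdown, rose by 0.47, or by 0.64. Of 14 cell cycle arrest and p53 target genes 6 rose and 1 fell, with a median of 0.44, and 5 and 1 without both libraries. Cdkn1a, the cell cycle inhibitor p21, held 15.1 to 18.3 CPM against 32.7, 28.3, 73.2 and 63.8 CPM and rose by 1.54, or by 1.39. Ccnd1 and Ccnd3, D-type cyclins, rose by 1.30 and 0.67, or by 1.40 and 0.81, and Ccng1, cyclin G, fell by 0.97, or by 1.25, from 661 to 1001 CPM to 343 to 599 CPM.

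Genes of energy metabolism were called in both directions. Of 79 nuclear respiratory chain genes 44 rose and 3 fell, with a median of 0.47, and 54 rose and 4 fell without both libraries, with a median of 0.65. Cox6a1 and Cox8a, subunits of complex IV, rose by 1.08 and 0.91, or by 1.16 and 1.02, and their operated samples all lay above the unoperated ones. Ndufb2, of complex I, held 104 to 141 CPM against 298, 266, 228 and 92.4 CPM and rose by 0.93, or by 1.30. Operated replicate 4 was below every unoperated sample there. Atp5g1, Ndufs1 and Sdha fell by 0.46, 0.63 and 0.66, or by 0.47, 0.92 and 1.02, and Atp5a1, the alpha subunit of the ATP synthase, was not called (log2 fold change -0.13, or -0.16).

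Of 13 genes of the mitochondrial genome 10 rose and none fell, with a median of 0.77, and 11 rose without both libraries, with a median of 0.96. The ribosomal RNAs mt-Rnr1 and mt-Rnr2 rose by 1.68 and 1.42, or by 1.94 and 1.64. For mt-Rnr2 the values were 1675, 1902, 1597 and 1779 CPM against 6148, 5433, 4820 and 2201 CPM, so operated replicate 4 was above the unoperated samples and far below the other operated ones. The tRNA mt-Ti rose by 1.61, or by 1.76. Relative to unoperated replicates 2 to 4, the median member of this list stood at 1.15, 0.89 and 0.84 on the log2 scale in operated replicates 1 to 3 and at -0.13 in operated replicate 4. For the nuclear respiratory chain genes these medians were 0.78, 0.67 and 0.48, and -0.04 in operated replicate 4.

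Of 12 regulators of mitochondrial biogenesis 5 fell and none rose, with a median of -0.42, and 9 fell without both libraries, with a median of -0.67. Tfam, which maintains mitochondrial DNA, and Ppard, a nuclear receptor, fell by 0.56 and 0.77, or by 0.69 and 1.05. Ppargc1b, a co-activator, fell by 0.98, or by 1.47. Ppargc1a, the best known co-activator of the group, held 63.1, 99.6, 76.7 and 247 CPM against 37.0, 57.9, 30.1 and 129 CPM, with replicate 4 high in both groups, and was called lower only without both libraries (log2 fold change -0.93 with and -1.76 without). Of 20 glycolysis and glycogen genes 7 fell and none rose, with a median of -0.31, and 8 fell without both libraries. Hk2, a hexokinase, went from 635 to 1101 CPM to 213 to 370 CPM and fell by 1.44, or by 1.65. Gpd1, a link between sugar and fat metabolism, fell by 1.17, or by 1.60.

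Of 15 citric acid cycle genes 4 fell and none rose, and 6 fell without both libraries. Cs, citrate synthase, fell by 0.56, or by 0.77. Of 23 fatty acid uptake and oxidation genes 8 fell and 2 rose, with a median of -0.27, and 11 and 2 without both libraries. Ppara, a nuclear receptor for fatty acids, held 3.12, 7.18, 9.61 and 10.6 CPM against 1.18, 1.25, 1.24 and 6.76 CPM. It fell by 1.52, or by 2.89 without both libraries. Acadm and Acsl1, enzymes of fatty acid oxidation and activation, fell by 0.78 and 0.73, or by 1.22 and 1.27. Cpt1b, which carries fatty acids into mitochondria, fell by 0.59, or by 0.87. Etfb, an electron carrier, rose by 1.30, or by 1.63, and Cd36, a fatty acid transporter of fibres, fat and endothelium, by 0.61, or by 0.67.

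Of 60 cytosolic ribosomal protein genes 31 rose and none fell, with a median of 0.45, and 44 rose without both libraries, with a median of 0.67. Rpl39, a subunit of the large part, held 34.8, 23.7, 19.4 and 25.1 CPM against 65.4, 59.3, 63.2 and 29.2 CPM and rose by 1.07, or by 1.46. Operated replicate 4 was below unoperated replicate 1 for this gene. Rpl39l, its paralog, held 0.452 to 1.65 CPM in the unoperated samples and 1.595 to 3.92 CPM in the operated ones and rose by 1.53, or by 1.69. Rpl26 held 0.244 to 0.358 CPM against 0.395 to 0.832 CPM and rose by 1.14, or by 1.29. Rpl10 was not called (log2 fold change 0.14, or 0.24). These genes have many near-identical processed copies in the genome, so the share of their reads that was counted is uncertain.

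Stress genes rose in part. Of 13 heat shock proteins 7 rose and none fell, with a median of 0.56, and 6 rose without both libraries. Cryab, the small chaperone alpha B-crystallin, held 842, 700, 616 and 708 CPM against 2451, 2477, 1853 and 1716 CPM. All operated samples lay above all unoperated ones, operated replicate 4 included, and the rise was 1.57 (SE 0.17), or 1.74. Of 16 endoplasmic reticulum stress genes 5 rose and 2 fell, and 7 and 3 without both libraries. Trib3 and Ddit3, which act in the stress response, rose by 1.78 and 0.65, or by 2.49 and 0.82, and Pdia3, a folding enzyme, by 0.64, or by 0.83. Chac1, which breaks down glutathione, and Dnajb9, a co-chaperone, fell by 1.69 and 0.55, or by 1.90 and 0.59. Hspa5, the main chaperone of the compartment, had a log2 fold change of -0.33, or -0.39, and was not called in either set.

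Of 15 antioxidant and metal defence genes 1 rose and 3 fell, and 3 and 4 without both libraries. Sod1, superoxide dismutase, rose by 0.43, or by 0.63, and Txnrd1, thioredoxin reductase, Prdx1, a peroxiredoxin, and Gsr, glutathione reductase, fell by 0.96, 0.38 and 0.30, or by 1.22, 0.40 and 0.44. Mt1, a metallothionein, was called only without both libraries (log2 fold change 0.61 with and 0.75 without). Of 17 circadian clock genes 7 fell and none rose in each set, with medians of -0.45 and -0.44. Bhlhe41, a clock repressor, held 72.7 to 75.8 CPM against 27.4, 33.8, 27.4 and 41.5 CPM and fell by 1.20, or by 1.33. Rora and Hlf, clock-linked transcription factors, fell by 1.11 and 1.02, or by 1.48 and 0.95. Arntl, the core activator of the clock, was not called (log2 fold change 0.32, or 0.03), and it was higher in operated replicates 3 and 4, at 14.4 and 17.5 CPM, than in replicates 1 and 2, at 6.13 and 7.25 CPM. The hour at which samples were taken was not given in the sources used here.

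Immune recognition genes rose as a group. All 12 antigen presentation genes rose with all samples and 11 without both libraries, with medians of 1.25 and 1.51, and in all 12 the groups did not overlap, against 33.7% of all genes. All 11 interferon response genes rose in each set, with medians of 0.97 and 1.17. H2-K1, a classical class I molecule shown by nearly all cells, held 65.5, 58.8, 46.6 and 72.3 CPM against 173, 115, 160 and 117 CPM and rose by 1.21, or by 1.33. H2-Aa, H2-Ab1 and H2-Eb1, the class II molecules of antigen-presenting cells, rose by 1.71, 1.86 and 1.80, or by 1.68, 1.87 and 1.81. Genes of this family are near copies of each other and differ between strains, so reads may be shared among them. Bst2, a surface protein induced by interferon, held 7.52, 4.32, 4.64 and 4.23 CPM against 25.7, 18.2, 19.5 and 9.90 CPM. Its groups did not overlap, unoperated replicate 1 was the highest of its group and operated replicate 4 the lowest of its own, and it rose by 1.82, or by 2.26. Isg15, a ubiquitin-like modifier, and Oasl2, an antiviral protein, rose by 1.55 and 1.35, or by 2.18 and 1.77.

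These members rose together, and the promoters of 4 of them are shown, all chosen among those that hold the element marked below. Each is given as the 250 bases before the start in RefSeq (GRCm38.p6), 5′ to 3′ on the strand of the gene, with copies of the interferon-stimulated response element (GAAA, any 2 bases and GAAA again, on either strand), which interferon-activated factors recognise, in capitals. Isg15 is at chr4:156200819-156201068 on the reverse strand, Ifit1 at chr19:34640639-34640888, Gbp2 at chr3:142620413-142620662 and B2m at chr2:122147437-122147686, all 3 on the forward strand.
Isg15: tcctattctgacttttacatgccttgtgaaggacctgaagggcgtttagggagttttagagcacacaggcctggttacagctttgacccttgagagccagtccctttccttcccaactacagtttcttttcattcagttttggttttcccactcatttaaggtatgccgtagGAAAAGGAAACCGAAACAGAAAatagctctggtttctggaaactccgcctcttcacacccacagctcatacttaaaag
Ifit1: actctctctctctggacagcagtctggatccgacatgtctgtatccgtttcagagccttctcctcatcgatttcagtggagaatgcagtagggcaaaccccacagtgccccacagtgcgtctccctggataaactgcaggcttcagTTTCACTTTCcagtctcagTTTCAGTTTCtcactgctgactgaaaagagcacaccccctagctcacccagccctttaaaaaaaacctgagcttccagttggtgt
Gbp2: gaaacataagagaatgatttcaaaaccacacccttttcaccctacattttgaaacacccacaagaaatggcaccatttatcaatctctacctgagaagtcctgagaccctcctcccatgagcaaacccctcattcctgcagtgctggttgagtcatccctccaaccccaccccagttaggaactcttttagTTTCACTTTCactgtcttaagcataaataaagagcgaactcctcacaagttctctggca
B2m: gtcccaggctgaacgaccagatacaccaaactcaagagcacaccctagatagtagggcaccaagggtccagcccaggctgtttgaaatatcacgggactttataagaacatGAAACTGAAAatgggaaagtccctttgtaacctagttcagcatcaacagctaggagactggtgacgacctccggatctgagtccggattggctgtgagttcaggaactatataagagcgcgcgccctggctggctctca
Isg15 held 3 overlapping copies, Ifit1 2, and Gbp2 and B2m 1 each. The element was present in 6 of 10 interferon response genes with a promoter in the table (60%). Of 9 antigen presentation genes only B2m held it (11.1%). Its share was 2.93% of 9128 genes analysed with a promoter and 2.98% of all 32851 promoters. A match is a description of the letters, and no match says only that these letters are not in this window. Ifit1 held 0.978, 0.690, 1.55 and 0.948 CPM against 3.09, 2.01, 1.81 and 1.26 CPM, with a log2 fold change of 0.97, or 1.12. Gbp2, a guanylate-binding protein, rose by 0.83, or by 0.96. B2m, the light chain of class I molecules, held 127, 86.3, 78.8 and 104 CPM against 311, 209, 270 and 153 CPM and rose by 1.25, or by 1.56.

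Connective tissue genes were called higher about as often as genes at large with all samples. Of 13 collagens 3 rose and none fell in each set, with medians of 0.95 and 1.14, against 22.3% of all genes higher, or 26.6% without both libraries. The 3 were Col4a1 and Col4a2, chains of the basement membrane, and Col15a1, at 1.50, 1.36 and 0.90, or 1.61, 1.47 and 1.002. Col4a1 held 163, 149, 121 and 126 CPM against 343, 349, 510 and 383 CPM, with no overlap. Col1a1, the main fibrillar collagen, held 539, 143, 176 and 159 CPM against 304, 216, 725 and 718 CPM. Unoperated replicate 1 lay above operated replicates 1 and 2, and neither the 0.95 with all samples nor the 1.39 without both libraries was called (adjusted p = 0.256 and 0.127 in edgeR's quasi-likelihood test). Of 20 matrix genes 5 rose and none fell, and 7 rose without both libraries. Lox, which joins collagen fibres, held 4.27 to 8.31 CPM against 16.4, 14.8, 35.1 and 36.7 CPM and rose by 2.25, or by 2.32. Eln, for elastin, rose by 2.03, or by 1.80, and Timp1, an inhibitor of matrix proteases, by 1.61, or by 1.99, while Fn1, for fibronectin, was not called (log2 fold change 0.18 in each set).

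**Figure D5:**
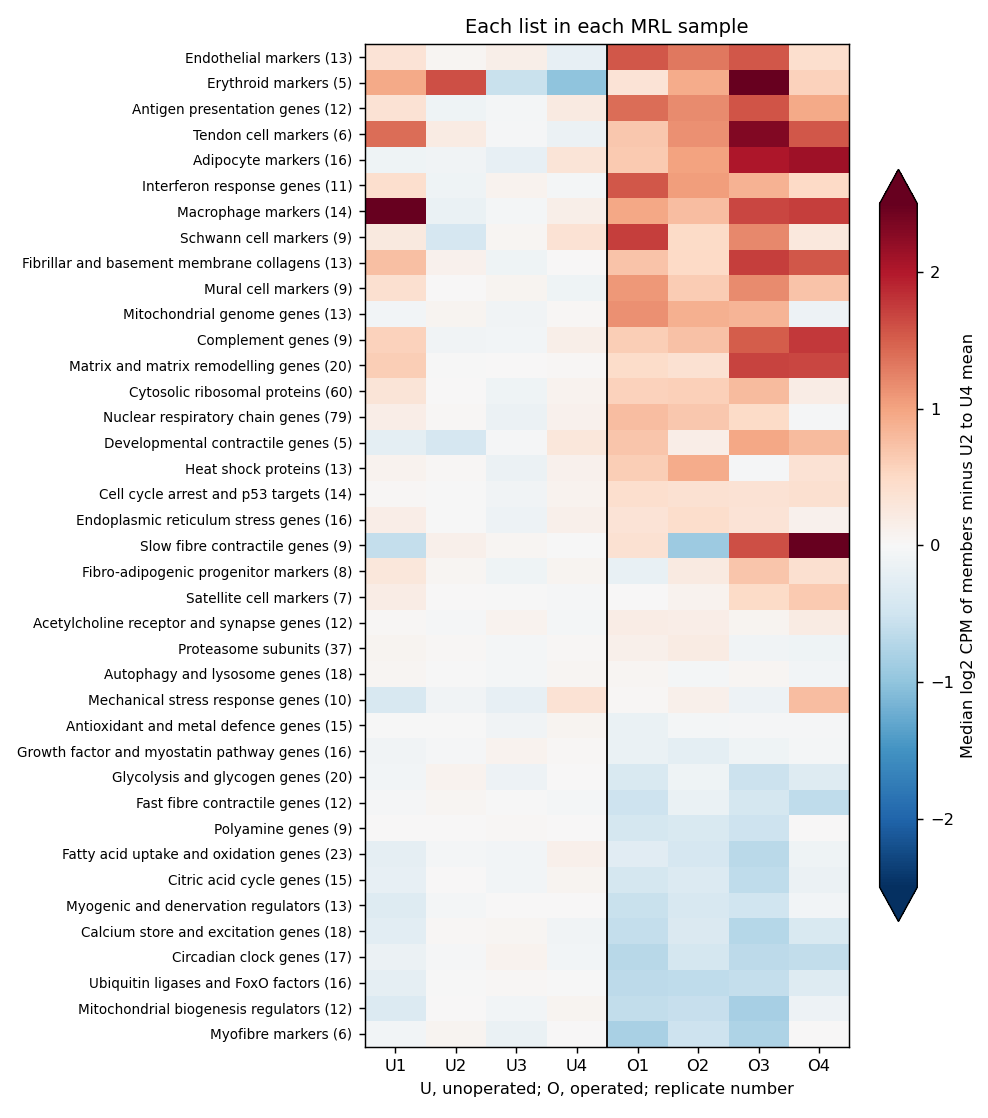
For each list (number of analysed members in parentheses) and each MRL sample, the median over members of log2 CPM relative to the mean of unoperated replicates 2 to 4, in colour, with U for unoperated and O for operated and arrows on the colour bar for values beyond its ends. U1 stands out in the macrophage markers, at 2.74, and O4 lies near 0 for mitochondrial genome genes, at -0.13, but at 3.63 for slow fibre genes and 2.11 for adipocyte markers.

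Adipocyte markers were among the lists that moved the most. Of 16 analysed markers 12 rose and none fell, with a median of 1.72, and 8 rose without both libraries, with a median of 1.43. Fabp4, a fatty acid carrier of fat cells and of small vessels, held 356, 296, 254 and 301 CPM against 1870, 1368, 1635 and 903 CPM. All operated samples lay far above all unoperated ones, and the rise was 2.26 (SE 0.20, adjusted p = 4.12e-05 in edgeR's quasi-likelihood test), or 2.52. Cfd held 25.3, 22.0, 8.39 and 24.4 CPM against 99.8, 100.5, 122 and 281 CPM. Retn held 0.968 to 1.60 CPM against 5.48, 8.53, 16.12 and 15.98 CPM. Plin1, the coat of the fat droplet, held 2.57, 2.45, 1.68 and 4.47 CPM against 4.06, 5.48, 15.1 and 50.4 CPM, and its rise of 2.75 was not called without both libraries (log2 fold change 1.52, adjusted p = 0.139).

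Of 4 analysed brown fat markers 3 rose, and 1 without both libraries. Ucp1, the uncoupling protein of brown fat, held 0.183, 0.588, 0.0323 and 0.0813 CPM against 0.162, 0.243, 2.20 and 83.2 CPM. Operated replicate 4 held nearly all of it, and the log2 fold change was 6.52 with all samples (adjusted p = 0.0182) and 1.83 without both libraries (adjusted p = 0.411). Cidea, a fat droplet protein of brown fat, held 40.2 CPM in operated replicate 4 and 0.948 to 4.69 CPM in the other 7 samples, and its rise of 3.26 was 1.13 and not called without both libraries. Dio2, which activates thyroid hormone, was called in both sets, at 2.02 and 2.20. The high levels of Ucp1, Cidea and the slow fibre genes stood together in 1 library, and what links them was not tested.

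Macrophage markers were highest in an unoperated sample. The summed level of the 14 analysed markers was 528 CPM in unoperated replicate 1, 94.0, 96.1 and 125 CPM in the other unoperated samples, and 193, 172, 302 and 329 CPM in operated replicates 1 to 4. With all samples 1 marker rose and none fell, with a median of 0.27, and without both libraries 4 rose, with a median of 1.17. Adgre1, the macrophage surface protein F4/80, held 48.5, 1.38, 2.0 and 1.95 CPM against 3.57, 2.71, 6.07 and 6.13 CPM, with a log2 fold change of -1.54 with all samples and 1.22 without both libraries, neither of them called. Mrc1, the mannose receptor, was the marker called with all samples, at 1.18, and the 1.19 without both libraries was not called. Cd68 had a log2 fold change of 0.62, or 0.99, and was not called in either set. C1qa, a complement component that macrophages make, held 61.5, 15.2, 12.8 and 17.7 CPM against 23.1, 25.4, 44.3 and 54.4 CPM and was not called (log2 fold change 0.46, or 1.03). S100a9, the only neutrophil marker analysed of 4 listed, rose by 1.89, or by 2.23, from 0.379 to 1.18 CPM to 1.92 to 4.37 CPM.

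Vessel genes rose together. Of 13 endothelial markers 12 rose and none fell, with a median of 1.23, and all 13 rose without both libraries, with a median of 1.49. The summed level was 685, 590, 628 and 504 CPM in the unoperated samples and 1637, 1372, 1502 and 688 CPM in the operated ones, so that operated replicate 4 was level with unoperated replicate 1. Egfl7, a factor secreted by endothelium, held 54.3, 41.9, 46.1 and 36.9 CPM against 174, 146, 158 and 64.8 CPM and rose by 1.60, or by 1.94. Emcn, Cldn5 and Pecam1, proteins of the endothelial surface and its junctions, rose by 1.85, 1.50 and 1.07, or by 2.36, 1.84 and 1.38. Of 9 markers of mural cells, which wrap vessels, 6 rose and 1 fell in each set. Rgs5, of pericytes, and Acta2 and Tagln, of smooth muscle, rose by 1.15, 1.36 and 1.44, or by 1.37, 1.66 and 1.72, while Abcc9, a potassium channel part that muscle fibres also make, fell by 0.96, or by 1.29.

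Nerve sheath markers were called higher more often than genes at large. With all samples the shares of tendon, fibro-adipogenic progenitor and satellite cell markers lay nearer to the 22.3% of all genes. Of 9 analysed Schwann cell markers 5 rose and none fell, with a median of 1.04, and 6 rose without both libraries. Mbp and Pmp22, of myelin, and S100b, of the whole Schwann cell, rose by 1.15, 1.08 and 1.24, or by 1.50, 1.32 and 1.50. Of 6 analysed tendon markers Thbs4 and Comp rose, by 1.51 and 2.04, or by 2.06 and 2.35, and 3 of the 6 were called higher without both libraries. Scx, the tendon transcription factor, was not called in either set (log2 fold change 0.54, or 0.62). Thbs4 held 110, 43.2, 41.2 and 37.0 CPM against 127, 114, 263 and 153 CPM, with unoperated replicate 1 near the operated samples. Of 8 fibro-adipogenic progenitor markers Ly6a and Cd34 rose, by 1.02 and 0.61, or by 1.33 and 0.80, and Pdgfra was not called (log2 fold change 0.25, or 0.16). Of 7 analysed satellite cell markers Vcam1 and Chodl rose, by 0.96 and 0.61, or by 1.08 and 0.82. Cdh15 fell by 0.36, or by 0.41, and Pax7, the defining factor of these stem cells, was not called (log2 fold change 0.21, or -0.15). None of 5 erythroid markers was called, and Hba-a1, an alpha globin with near-identical copies, held 1455 CPM in operated replicate 3 against 62.7 to 397 CPM in the others.

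Complement genes gave different calls in the 2 sets of samples. Of 9 analysed genes 2 rose and none fell with all samples, and without both libraries 2 rose and 2 fell. C4b, a form of the fourth component, rose by 1.63, or by 1.74. C1s1 and C1ra, on chromosome 6 (124530345 to 124542359 and 124512405 to 124523443), code for proteases that start the complement cascade, and C1rb is the copy of C1ra (124570294 to 124581171). C1s1 held 0.0917, 25.9, 29.3 and 27.4 CPM in the unoperated samples and 0.0406, 0.0347, 0.0355 and 56.1 CPM in the operated ones. It was thus at or under the lowest detectable level in unoperated replicate 1 and operated replicates 1 to 3, and plainly present in the other 4 samples. C1ra followed it, at 0.764, 9.92, 8.35 and 9.94 CPM against 0.365, 0.416, 0.852 and 18.2 CPM. C1rb was the mirror image, at 15.6, 1.20, 1.32 and 1.79 CPM against 14.9, 14.01, 24.3 and 3.92 CPM. With all samples none of the 3 was called, and for C1s1 edgeR's quasi-likelihood test gave an adjusted p = 0.753. Without both libraries every sample low in C1s1 was an operated one, and C1s1 and C1ra were called lower and C1rb higher. In BL6 the unoperated and operated means were 31.9 and 65.1 CPM for C1s1 and 7.23 and 16.2 CPM for C1ra. For C1rb they were 0.0284 and 0.0250 CPM. In MRL, C1s1 was likewise above C1rb in unoperated replicates 2 to 4 and operated replicate 4, and below it in the others. C1ra and C1rb are near copies, so their reads may be shared. These 3 genes placed unoperated replicate 1 and operated replicate 4 with samples of the other group, while Sln, Ankrd1 and Myog placed both on the side of their own label. Sln and Ankrd1 were named as large rises among genes whose groups did not overlap. C1s1, C1ra and C1rb were named because 1 or both libraries stood apart in them, so these placements followed in part from the choice of genes. Whether the libraries were exchanged or mixed, or differ in genotype near C1s1, C1ra and C1rb, was not tested.

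Other genes turned on the same libraries. Aif1, Rac2, Cd52, Fcrls and Acp5, genes of macrophages and related cells, were the 5 in which unoperated replicate 1 stood highest above its group, with 32.9, 82.1, 34.1, 114 and 68.6 CPM. In the other 3 unoperated samples the highest values of these genes were 0.806, 2.41, 1.19, 3.66 and 3.01 CPM. None was called with all samples, and Aif1 rose by 2.62 without both libraries. Sfrp2, a Wnt antagonist of connective tissue cells, Fgfr2, a growth factor receptor, and Col8a2, a collagen, were also called only without both libraries, at 3.20, 2.60 and 2.42. Among falls, Kcna7, a potassium channel, held 35.9, 70.3, 64.9 and 78.8 CPM against 5.52, 8.32, 4.44 and 63.2 CPM, and Klhl34 and Myoz3, the latter a Z-disc protein, had the same shape. All 3 were called only without both libraries, with log2 fold changes of -3.55, -3.64 and -3.07 there and of -1.61, -1.49 and -1.01 with all samples. Pdpr, a regulator of pyruvate dehydrogenase, held 25.7, 91.5, 111 and 87.7 CPM against 5.60, 5.86, 4.30 and 57.1 CPM and was called in both sets, at -2.10 and -4.20. Hipk2, a kinase, fell by 2.24, or by 3.38. Unoperated replicate 1 was the lowest of its group and operated replicate 4 the highest of its own in both.

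Genes called only with both libraries included Ucp1, Cidea, Plin1 and Myl3 above and Pck1, an enzyme of glucose and glycerol synthesis, which held 14.9, 22.8, 65.1 and 175 CPM in the operated samples. Ppp1r1a, Irx3os, Socs2 and Efcab6 were among those called lower only with both libraries, with log2 fold changes of -0.99, -0.96, -0.86 and -0.85. Without both libraries these were -0.86, -0.999, -0.56 and -0.71, so that the call was lost and the direction was not. Car4, Timp4, Car8 and Ly6c1 rose by 1.92, 1.41, 1.10 and 1.64, or by 2.25, 1.80, 1.44 and 1.997, but operated replicate 4 held far less of each than the other operated samples. Car4, a carbonic anhydrase of vessel and fibre surfaces, held 69.9, 42.2, 34.5 and 11.8 CPM against 7.75 to 11.7 CPM. Ly6c1, a surface protein of endothelium and blood cells, held 37.4 CPM in operated replicate 4, within the unoperated range of 34.4 to 42.2 CPM. Gbp10, an interferon-induced protein, was low in unoperated replicate 1, at 1.68 CPM, and was not called (log2 fold change 0.35, or -0.97).

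The BL6 samples show where the MRL response was tested to differ. In BL6 7950 genes (67.9%) were called, 4107 of them higher (35.1%), and 4774 of the 5272 genes called in MRL were called in BL6 in the same direction. Another 9 were called in opposite directions, and 489 were called in MRL only, which does not show a difference by itself. The interaction of strain and surgery was called for 29 genes (0.248%) in edgeR's quasi-likelihood test, 18 more positive and 11 more negative in MRL, with 1843 at an unadjusted p under 0.05. Without both libraries 24 were called, with 1209 at an unadjusted p under 0.05. The count depended on the test and on single samples, with 250 genes in DESeq2 and 1 to 69 when 1 replicate was left out. None of the 489 genes was among the 29, and 8 of the 29 were also called in MRL.

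Snx10, a sorting nexin of the endosome, was called in both strains in opposite directions and for the interaction. It held 4.95, 3.07, 3.03 and 3.49 CPM against 9.74, 6.14, 7.70 and 8.05 CPM in MRL, and went from a mean of 13.1 to 9.35 CPM in BL6. The MRL change minus the BL6 change was 1.61 (SE 0.29, adjusted p = 0.0369 in edgeR's quasi-likelihood test), or 1.78 (adjusted p = 0.0303) without both libraries. Tcea1, a transcription elongation factor, fell by 0.77 in MRL and rose by 1.10 in BL6, a difference of -1.87, or -2.35. Its levels were low in MRL, at 0.959 to 2.76 CPM. Fzd4, a Wnt receptor of vessels and muscle, fell by 0.93 in MRL, from 151, 145, 163 and 113 CPM to 87.2, 66.8, 66.5 and 79.1 CPM, and by 2.04 in BL6, a difference of 1.11, or 1.11 again without both libraries. Pcmtd2 and Oxr1 also fell less in MRL, with differences of 1.18 and 0.93, or 0.93 and 0.77. The call for Oxr1 was lost without both libraries (adjusted p = 0.0663), as was that for Fv1, a restriction factor against retroviruses, with 1.93 (adjusted p = 0.0466) against 1.74 (adjusted p = 0.1). Atp5g1, Selenos, Chmp2b, Socs4, Irx3, Ezh1 and Gbp5 were the other genes called in opposite directions, with MRL log2 fold changes between -0.46 and 0.70, and none of these 7 was called for the interaction. Chmp2b and Irx3 were not called in MRL without both libraries.

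Among the lists, the interaction was called with all samples for 2 ribosomal protein genes, Rpl34 and Rpl35a, and for Hspa8, a constitutive chaperone, and for no other member. For the complement genes C1s1 and C1ra it was called only without both libraries. Their differences there were -10.44 and -5.27 (adjusted p = 1.44e-05 and 0.00241 in edgeR's quasi-likelihood test). With all samples the same test gave -1.56 and -1.69 (adjusted p = 0.669 and 0.521). Leaving out both libraries made low levels of C1s1 and C1ra coincide with surgery in MRL. These 2 calls therefore followed from that choice and do not show a difference between the strains. Rpl34 and Rpl35a had log2 fold changes of 0.10 and 0.29 in MRL, neither called with all samples, and rose by 1.27 and 1.34 in BL6. Hspa8 had a log2 fold change of -0.19 in MRL, not called, and rose by 0.98 in BL6. The interactions of Rpl34, Rpl35a and Hspa8 without both libraries are not reported here. Counts of list members called higher in BL6 are to be read against the 35.1% of all genes there, and those in MRL against 22.3%. Of the 60 ribosomal protein genes, 56 were called higher in BL6, with a median of 0.98. In MRL 31 were called higher, with a median of 0.45. For the interaction, 37 of the 60 passed the unadjusted cut of 0.05 with all samples, where 15.7% of all genes did. Without both libraries 10.3% of all genes passed it, and the count for this list is not reported here. Collagens and matrix genes were called higher for 11 of 13 and 14 of 20 in BL6, against 3 and 5 in MRL. Without both libraries the MRL counts were 3 and 7, and none of these genes was called for the interaction with all samples. Macrophage markers were called higher for 10 of 14 in BL6, against 1 in MRL, or 4 without both libraries. None was called for the interaction with all samples.

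The authors' deposited table of this comparison calls 6600 genes at a false discovery rate under 0.05, 3425 higher and 3175 lower. Of the 5272 genes called here 5183 are also called in the authors' deposited table, all in the same direction.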

How the data were processed

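RNA sequencing counts per gene were deposited by the authors as whole numbers in 1 column per sample, with no normalization. Per the submitters' processing notes, FastQC, STAR, edgeR and the mm10 genome build were used, and no version is named. The counting program, its annotation and its use of strand are not given in the sources used here. A second deposited table gives the authors' log2 fold changes, log2 CPM, p-values and false discovery rates, and was used only where named.

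Totals were 24323862 to 39694956 counts in the 8 MRL samples. The floor of 3 counts was 0.0756 to 0.123 CPM, which covers counting error only, since PCR copies of a molecule cannot be recognised here. Columns were matched to samples by title. Counts were analysed in R 4.3.3 with edgeR 4.0.16: filterByExpr with a minimum count of 10 removed 1 of 11710 genes, TMM scaled the libraries, and all 16 samples entered 1 quasi-likelihood fit with a mean for each of the 4 groups. P-values were adjusted by Benjamini-Hochberg over 11709 genes with a threshold of 0.05, and log2 CPM per sample used a prior count of 2. The same model was fitted without unoperated replicate 1 and operated replicate 4. The procedure was tested on simulated data. Alternatives were DESeq2 1.42.0, limma 3.58.1 (voom), other scalings, no filter, a replicate block, the MRL samples alone and each replicate left out. The position along the BL6 response without both libraries was added after the data were seen. Figures were drawn with Python 3.11.15, pandas 2.3.3 and matplotlib 3.10.9.

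The comparison and the gene lists were chosen with earlier results of these data known. Named genes were, among those of at least 5 CPM, called and without overlap, the 12 largest rises and 12 largest falls. To these were added, among called genes, the 6 largest gains and 6 largest losses in CPM. Of each list, its first analysed gene and the 3 largest called changes in each direction were added as well. The other named genes were those called in opposite directions in the strains and, 5 in each direction, those with the largest interactions, those called in only 1 set of samples and those in which 1 of the 2 libraries stood farthest from its group. Mb, Des, Ttn, Neb, Trim63, Adgre1, Ifit1, Gbp2, B2m, Rpl34, Rpl35a and Hspa8 were chosen after their values were seen. Some genes that these rules name are not reported here. Gene coordinates come from GENCODE M21 (GRCm38), to which 11707 gene identifiers matched, and promoters from RefSeq (GRCm38.p6).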

Additional observations from a re-analysis of the deposited data

Results flagged for a closer look

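Within each MRL group, the highest or lowest of the 4 samples was checked for the genes named, the list sums, the first component and the position. A value is given below where its gap to the nearest other sample, divided by the range of the group, was above the 95% critical value of Dixon's test for 4 samples. Chance would give such a gap in about 1 of 20 groups. The 58 found among 464 groups cannot be read against that share, nor counted by sample, because many of the genes had been named for unoperated replicate 1 or operated replicate 4 standing apart in them.

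Operated replicate 4 stood above its group in genes that fell with surgery. Its values were 166.6 CPM for Abcc9, 357 for Acsl1, 15.7 for Adcy9, 18.6 for Hipk2, 7.90 for Musk, 8.71 for Nkain1, 57.1 for Pdpr, 6.76 for Ppara, 53.5 for Rora and 70.3 for Ulk1. Kcna7, Klhl34 and Myoz3, which were called lower only without both libraries, held 63.2, 10.8 and 56.4 CPM there. In the complement proteases C1ra and C1s1, which were also called lower only without both libraries, it held 18.2 and 56.1 CPM.

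The same sample also stood above the other operated samples in genes that rose. It held 511 CPM of Ankrd1, 25.1 of Apoc1, 281 of Cfd, 40.2 of Cidea and 83.2 of Ucp1. For Myh7 and Pax7, which were not called, it held 201 and 5.95 CPM, and the summed level of the slow fibre genes was 7331 CPM. It stood below the other operated samples in the immunoproteasome subunit Psmb10, at 20.03 CPM, and in Rpl39, at 29.2 CPM, both of which rose.

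Unoperated replicate 1 stood above its group in genes of macrophages, with 528 CPM for the summed markers, 68.6 for Acp5, 48.5 for Adgre1, 32.9 for Aif1, 61.5 for C1qa, 34.1 for Cd52, 114 for Fcrls and 82.1 for Rac2. It also stood above it in connective tissue and growth factor genes, with 539 CPM for Col1a1, 91.1 for Fn1, 8.31 for Lox, 31.5 for Pdgfra, 6.94 for Sfrp2, 9.14 for Tgfb1 and 110 for Thbs4. Other genes high in it were Bst2 at 7.52 CPM, C1rb at 15.6, Chodl at 17.0, Cldn5 at 9.20, Ndufb2 at 141, Psmb9 at 4.65 and Vcam1 at 8.74. It was below its group in C1s1 at 0.0917 CPM, Cidea at 0.948 and Mef2a at 137, and its first component was -10.21.

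In 7 genes another sample stood apart. Actc1 held 280.0 CPM and Socs4 15.8 in operated replicate 1, Tpm1 10896 in operated replicate 2 and Hba-a1 1455 in operated replicate 3, each the highest of its group. Pck1 was the highest of its group in unoperated replicate 4, at 17.1 CPM. Car4 was the lowest in unoperated replicate 4, at 7.75 CPM, and Irx3 in unoperated replicate 3, at 3.84 CPM.

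Of the genes named, 9 were called with all samples for the interaction of strain and surgery in edgeR's quasi-likelihood test. It tests whether the change in MRL differs from that in BL6. The MRL change exceeded the BL6 change on the log2 scale by 1.93 in Fv1 (adjusted p = 0.0466), 1.11 in Fzd4 (0.0346), 0.93 in Oxr1 (0.0448), 1.18 in Pcmtd2 (0.0347) and 1.61 in Snx10 (0.0369). It was lower in Hspa8, with a difference of -1.17 (adjusted p = 0.0347), in Rpl34, with -1.17 (0.0387), in Rpl35a, with -1.04 (0.0347), and in Tcea1, with -1.87 (0.0369). All 9 came from a test whose count of called genes ranged from 1 to 69 when 1 replicate was left out.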

How the results depend on the processing

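The 5272 genes called for surgery in MRL numbered 3925 to 5777 under the other scalings, tests and fits with all 8 samples, 6399 without both libraries, and 3490 to 6145 when 1 replicate was left out, the lowest without operated replicate 3. The 6399 without both libraries numbered 5248 to 6411 under the other settings and 5143 to 6057 when 1 more replicate was left out. The 29 interaction genes depended more on the setting: 14 were called with total counts only, 250 by DESeq2, and 1 to 69 when 1 replicate was left out. That count stayed within 1.5 times the 29 only without BL6 operated replicate 4 (36) and without MRL operated replicate 3 (40). With the replicate number as a block (replicate block), 5197 genes were called for surgery in MRL, 6049 without both libraries and 2 for the interaction. The deviations of same-numbered MRL samples correlated at 0.137, 0.267, -0.245 and 0.209, and 2 of 4 numbers correlated best with their own. The mean was 0.092 for the same number and -0.0405 for different numbers. So few correlations cannot decide whether the numbers pair the samples. The position of the operated samples along the BL6 response exceeded that of the unoperated ones by 0.596, by 0.598 over genes called in BL6, and by 0.734 without both libraries.

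Without both libraries these list counts changed by more than 1.5 times: called higher, 3 acetylcholine receptor, 1 mechanical stress, 3 slow fibre, 1 developmental, 11 proteasome, 3 antioxidant, 1 brown fat and 4 macrophage genes. Called lower were 2 mechanical stress, 5 proteasome, 9 mitochondrial biogenesis and 2 complement genes.

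Of the 225 genes followed through every setting, 215 kept their direction and 123 kept direction and call. The other 10 reversed, 9 of them without both libraries. On the log2 scale, without both libraries Acp5 (-0.68) became 1.92, Adgre1 (-1.54) 1.22, Aif1 (-1.14) 2.62, Cd52 (-1.80) 1.64, Fcrls (-1.72) 1.41, Rac2 (-2.45) 1.02, Gbp10 (0.35) -0.97, Myh7 (2.72) -0.69 and Pax7 (0.21) -0.15. By voom Acp5 became 1.12, Adgre1 0.24, Aif1 1.29, Cd52 0.40 and Fcrls 0.28, and with the replicate block Acp5 became 0.10 and Aif1 0.25. With 1 replicate left out, the range was -1.13 to 2.37 for Acp5, -1.91 to 1.39 for Adgre1, -1.54 to 2.67 for Aif1, -2.19 to 1.68 for Cd52, -2.10 to 1.56 for Fcrls and -2.85 to 1.22 for Rac2, each highest without unoperated replicate 1. It was -0.69 to 0.66 for Gbp10, -0.37 to 3.54 for Myh7 and -0.048 to 0.35 for Pax7, each lowest without operated replicate 4, and -0.061 (without operated replicate 3) to 0.18 for Rpl34 (0.10), which was also below 0 without unoperated replicate 4. Only Aif1 among these 10 was called without both libraries. Low levels limit Ucp1, C1s1 and Rpl26 in samples near the floor of 3 counts, and the cause of the changes between settings was not tested.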
